A study of Homo sapiens with 48 samples.

Results

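The genes described here are NES, MAP2, NRCAM and ACHE, 4 of the 452 genes on a targeted RNA panel, grouped as genes of neural progenitors and of neurites. They were found by taking every probe whose symbol was one of these names, which gave 10 of the 1113 probes: 3 for NES, 3 for MAP2, 2 for NRCAM and 2 for ACHE. RNA was measured by RASL-Seq, in which neighbouring DNA probes annealed to oligo-dT captured RNA are joined by a ligase, and the joined products are amplified, sequenced and counted. All 48 libraries came from the established line WA09 (H9) of human embryonic stem cells, of normal genotype per the labels, so every group rests on a single line. Untreated cells of the line, called hESC, gave 4 libraries. Directed neural induction, called ectoderm, gave 4 libraries after 6 days in E6 medium with 100 nM LDN-193189 and 2 µM A83-01, inhibitors of BMP and of TGF-beta type receptors. Mesoderm and endoderm gave 4 libraries each after 5 days with the STEMdiff Mesoderm Induction Medium or Definitive Endoderm Kit. Embryoid bodies (EBs), floating aggregates of differentiating stem cells, were seeded at 20000 cells per well and kept in E6 medium for 7 days. In the first 24 hours they received either CEPT, a mixture made up of chroman 1, emricasan, polyamines and trans-ISRIB, or Y-27632, an inhibitor of ROCK kinases. These arms are called CEPT EB and Y27 EB and hold 16 libraries each. The labels do not say whether a library is a single EB or a separate culture, so p-values measure only the spread between these libraries, which may be technical. The titles of the 12 induced libraries and the 4 hESC libraries share a tag that the EB titles lack, and culture format and length differ too. These cannot be told apart from the group in any comparison of EBs with the control cultures.

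Nestin, the product of NES, is an intermediate filament protein of neural stem and progenitor cells that is lost as neurons mature, and it is also found in other progenitor cells. MAP2 binds and steadies microtubules in dendrites and is widely used as a marker of neurons. NRCAM is an adhesion protein of the L1 family that takes part in axon growth and guidance and in building the node of Ranvier, and ACHE encodes acetylcholinesterase, which ends signalling at cholinergic synapses by cleaving acetylcholine.

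In the human genome (GRCh38.p14, RefSeq), NES lies on chromosome 1 from 156668763 to 156677407 and MAP2 on chromosome 2 from 209424047 to 209734112. NRCAM spans 108147649 to 108456720 and ACHE spans 100889994 to 100896994, both on chromosome 7. The deposited tables name a probe by a number, a RefSeq transcript and a position in it, without its letters, its exon or its genome position. NES probes 498, 500 and 499 carry positions 2259, 2442 and 5237 of NM_006617. MAP2 probes are 457 (NM_031847, position 5261), 458 and 459 (NM_002374, positions 6876 and 8191). NRCAM probes are 942 (NM_001193584, position 5767) and 943 (NM_001193582, position 6147), and ACHE probes are 4 (NM_000665, position 2083) and 821 (NM_001302621, position 493). The probe with the highest mean level, here called the lead probe, was 500 for NES, 457 for MAP2, 942 for NRCAM and 821 for ACHE.

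The promoters are shown for NRCAM, the gene that passed the test between the EB arms, and for NES, whose difference between them lay close to the threshold. Each is written 5′ to 3′ on the gene's strand (minus for both), from 250 bases before to 50 after a RefSeq start. ACAAT or its reverse complement ATTGT, the core that SOX proteins bind, is in capitals. The NES window is chr1:156677358-156677657, and the NRCAM window, the first of 3 listed, is chr7:108456387-108456686.
NES: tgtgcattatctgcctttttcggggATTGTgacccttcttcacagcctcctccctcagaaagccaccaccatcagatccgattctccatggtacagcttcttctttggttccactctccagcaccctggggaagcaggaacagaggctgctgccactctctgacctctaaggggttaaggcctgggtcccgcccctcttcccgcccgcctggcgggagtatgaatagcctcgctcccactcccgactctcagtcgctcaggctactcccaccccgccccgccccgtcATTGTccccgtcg
NRCAM: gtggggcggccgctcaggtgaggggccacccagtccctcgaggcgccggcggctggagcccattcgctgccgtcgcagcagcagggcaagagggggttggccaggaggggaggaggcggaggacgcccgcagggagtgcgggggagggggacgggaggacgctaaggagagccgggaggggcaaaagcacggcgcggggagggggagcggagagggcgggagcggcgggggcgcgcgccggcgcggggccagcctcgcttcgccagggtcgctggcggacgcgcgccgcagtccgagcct
The NES window held 2 matches and 60.3% G or C, and this NRCAM window held 0 matches and 78.0% G or C. The other NRCAM windows, not printed here, held 2 and 3 matches and 42.7% and 35% G or C. Among all 35116 RefSeq promoter windows of that length, 27.4% held at least 1 match on either strand, and the median G or C content was 58.7%. A match of 5 letters describes the sequence and is not by itself a binding site.

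Library totals ran from 379810 to 5577868 reads with a median of 3583316, and only Y27 EB replicate 15 fell below 0.25 of that median. With 1 marker picked for each control group, the mean was 1772 CPM of NANOG in hESC, 893.5 CPM of PAX6 in ectoderm, 1060 CPM of T in mesoderm and 2036 CPM of SOX17 in endoderm. In the other control groups these reached at most 63.6, 168, 47.9 and 0.65 CPM. Not every marker was so clear. Of 11 pluripotency probes, 2 were higher and 8 lower in ectoderm than in hESC, with the same counts in endoderm. CPM is edgeR's library-size scaled read count, computed here with TMM factors over the 48 libraries. Reads of the 10 probes made up 0.040 to 0.047% of a library in endoderm, 0.103 to 0.138% in hESC, 0.217 to 0.270% in mesoderm and 0.489 to 0.548% in ectoderm. In EBs the share ran from 0.113 to 0.530% with CEPT and from 0.136 to 0.600% with Y-27632. Levels of different probes cannot be compared with each other, because a probe's yield depends on its own annealing and ligation. In these bulk samples, fewer cells of a type and less RNA per cell cannot be told apart.

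Between the EB arms, NRCAM was the only one of the 4 genes that passed the test. It was lower with CEPT than with Y-27632 by both of its probes, and its mean level was 1.85 times as high with Y-27632 by the lead probe. No probe of NES, MAP2 or ACHE passed the threshold, and the 3 NES values lay on the other side of 0. Of the 10 probes tested, 2 were lower with CEPT, 0 were higher and 8 did not pass an adjusted p of 0.05 (edgeR quasi-likelihood, p-values adjusted by Benjamini-Hochberg over 867 probes). In the same comparison 23.6% of all tested probes passed, 13% lower and 10.6% higher. The median log2 fold change was -0.12 over the 10 probes and -0.04 over all 867. Of all called probes 44.9% were higher with CEPT, a share that became 58.8% with median-ratio size factors, 60.5% in DESeq2 and 14.2% with library totals alone.

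**Figure D1:**
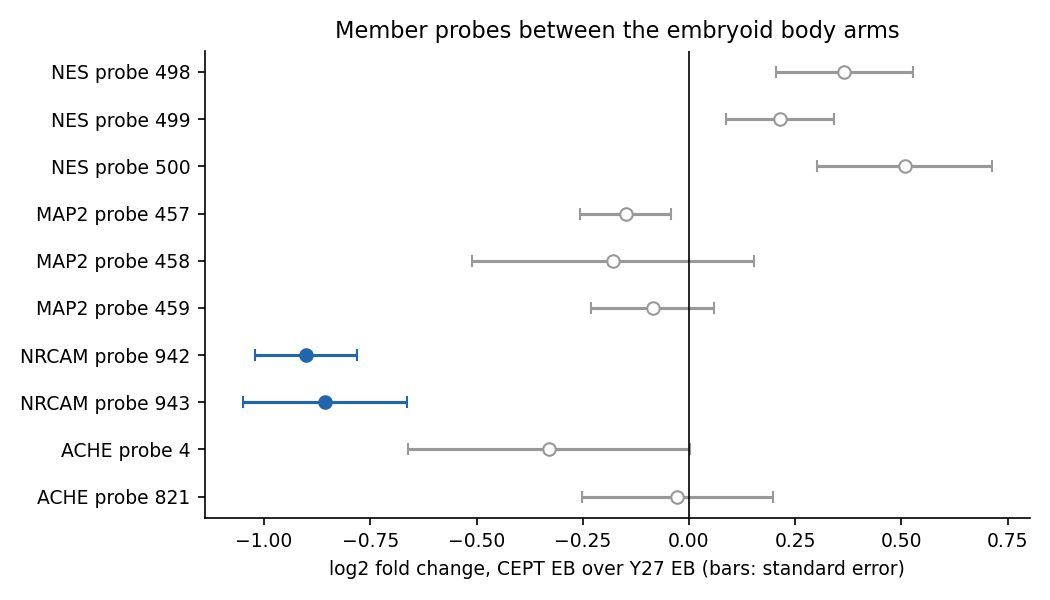
Log2 fold change of the 10 probes in CEPT EB over Y27 EB (horizontal axis, bars are the standard error, 16 libraries an arm), filled where the adjusted p was under 0.05. The 2 NRCAM probes stand at -0.90 and -0.86 and are the only filled points, while the 3 NES probes lie to the right of 0.

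Against hESC the genes followed the lineages differently. In ectoderm 8 of the 9 probes tested were higher and 1, of ACHE, was lower, where 81.7% of all 903 probes tested passed, 43.2% higher and 38.5% lower. In mesoderm 3 were higher, 5 lower and 1 did not pass, where 77.5% of all probes passed, 34.0% higher and 43.5% lower. In endoderm 1 was higher, 5 lower and 3 did not pass, where 78.2% passed, 38.4% higher and 39.8% lower. In CEPT EB all 10 probes were higher than in hESC, where 73.4% of 940 passed, 42.2% higher and 31.2% lower. In Y27 EB 8 were higher and 2 did not pass, where 74.1% of 963 passed, 41.5% higher and 32.6% lower. These counts are not of separate members, since the 10 probes belong to 4 genes and probes of a gene share RNA. ACHE probe 4, with 5 reads over the hESC libraries, passed the filter here only through its EB libraries. The panel's balance depended on the scaling. Of all called probes, the share higher than in hESC was 52.8% for ectoderm, 43.9% for mesoderm and 49.2% for endoderm, and it was 57.5% with CEPT and 56% with Y-27632. With reference-gene scaling these shares became 76.3%, 71.7%, 60.8%, 87.3% and 86%. With library totals alone the mesoderm share was 54.9%.

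Compared with ectoderm, CEPT EB had 3 probes higher, 6 lower and 1 that did not pass (72.8% of 952 passed, 38.4% higher and 34.3% lower). Y27 EB had 4 higher and 6 lower (72.6% of 963 passed, 32.6% higher and 40.0% lower). Between the induced lineages, ectoderm had 8 probes higher and 1 lower than mesoderm (80.2% passed, 42.0% higher and 38.2% lower) and the same counts against endoderm (79.7% passed, 39.9% higher and 39.9% lower). Mesoderm against endoderm gave 3 higher, 2 lower and 4 that did not pass (76.2% passed, 37.2% higher and 39.0% lower). Here too the balance moved with the scaling. For Y27 EB against ectoderm, 314 probes of the panel were higher and 385 lower, but 419 and 249 with library totals alone, 430 and 251 with reference genes, and 386 and 317 without the shallow Y27 EB replicate 15, where the members again gave 4 higher and 6 lower. Mesoderm against endoderm had 336 higher and 352 lower, but 461 and 255 with library totals and 428 and 271 with reference genes. Ectoderm against endoderm had 360 each way, but 443 and 292 with library totals and 509 and 228 with reference genes. With most probes of the panel called in each, a call as such sets no gene apart. These comparisons share their hESC or induced libraries. ACHE probe 4 was too low in the control cultures to be tested among them, and it was tested against ectoderm only through its EB reads.

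**Figure D2:**
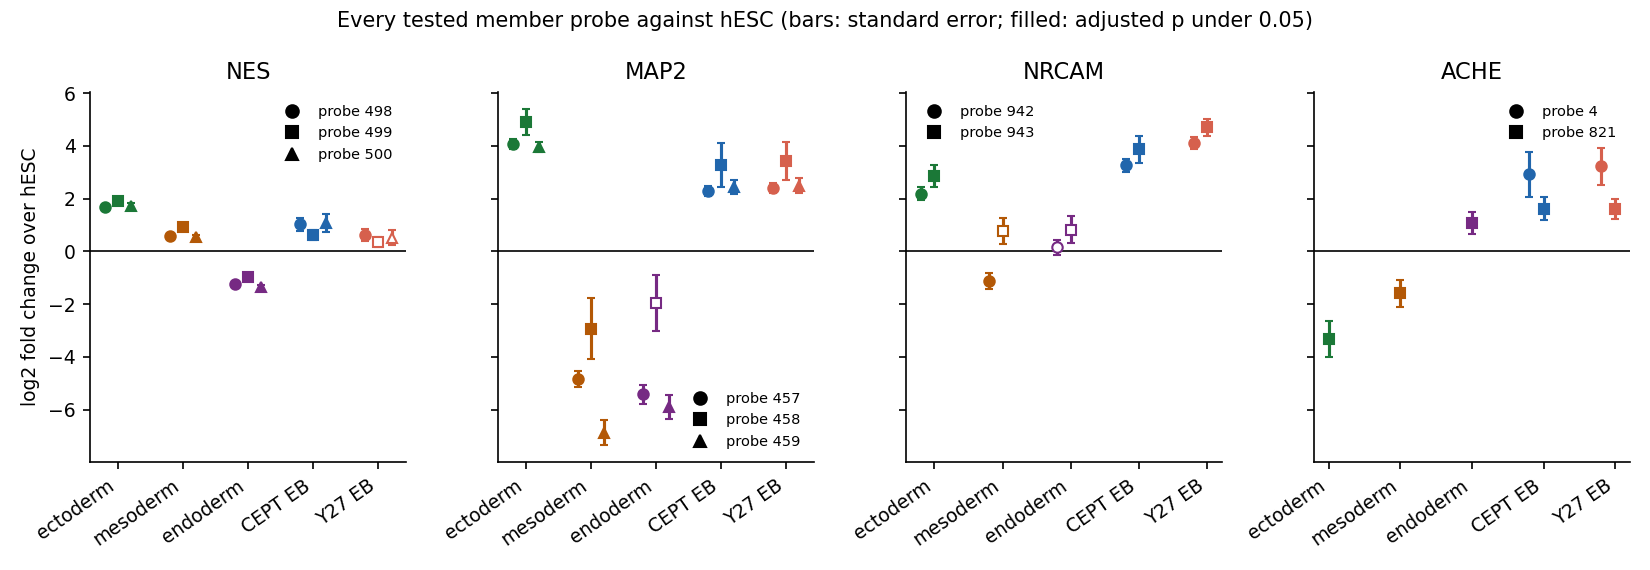
Log2 fold change over hESC (vertical axis, bars are the standard error) of every tested probe of the 4 genes, in 3 induced lineages (4 libraries each) and 2 EB arms (16 libraries each). Filled symbols passed an adjusted p of 0.05. Tested probes of 1 gene share their direction in ectoderm and the EB arms. The ACHE probes lie apart in the EB arms, probe 4 at 2.92 and 3.23 and probe 821 at 1.61 and 1.60. MAP2 shows the widest span, by its lead probe from 4.07 in ectoderm to -4.83 in mesoderm and -5.42 in endoderm. MAP2 probe 458 lies at -2.93 in mesoderm and -1.95 in endoderm.

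NES was highest in neural induction and lowest in endoderm. Its lead probe counted 520, 592, 619 and 626 CPM in the 4 hESC libraries and 1938, 1979, 2105 and 2063 CPM in the 4 ectoderm libraries. Mesoderm libraries held 977, 1021, 1132 and 1043 CPM, and endoderm libraries 266, 274, 243 and 249 CPM. The 4 control groups did not overlap, with ectoderm above mesoderm, mesoderm above hESC and hESC above endoderm. Here and for the other genes, the share of all panel probes with such gaps was counted only between the EB arms. Against hESC the log2 fold change was 1.72 ± 0.09 (SE, n = 4 each) in ectoderm, 0.55 ± 0.09 in mesoderm and -1.36 ± 0.09 in endoderm, and edgeR's adjusted p was 1.59e-12, 2.00e-05 and 8.29e-11. Probes 498 and 499 gave the same 3 directions, with 1.68 and 1.92 in ectoderm, 0.58 and 0.94 in mesoderm and -1.25 and -0.96 in endoderm, all past the threshold.

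In EBs the NES level varied widely from library to library. Lead probe levels were 506.5 CPM at the lowest, 1031 at the median and 2221 at the highest with CEPT (mean 1209 ± 563 SD, n = 16), and 446, 767.5 and 2069 CPM with Y-27632 (842 ± 380, n = 16). The highest libraries of each arm reached the ectoderm range, the lowest of each fell below every hESC library, and the arms overlapped over nearly all of their range. Of the 16 CEPT libraries, 13 were above the Y27 median. The log2 fold change of CEPT over Y27 was 0.51 ± 0.21 (SE) for probe 500, 0.37 ± 0.16 for probe 498 and 0.21 ± 0.13 for probe 499, with adjusted p-values of 0.0707, 0.0936 and 0.253. Summed over its probes, NES differed by 0.40 ± 0.17 (adjusted p = 0.0740).

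That NES difference lay close to the threshold, and single libraries moved it across. Probes 498 and 500 both passed without CEPT replicate 9 (0.44 and 0.58, adjusted p 0.0284 and 0.0304) or without Y27 replicate 12 (0.47 and 0.67, adjusted p 0.0262 and 0.00745). Probe 500 passed without CEPT replicate 1 (0.56, adjusted p 0.047) and probe 498 without Y27 replicate 9 (0.44, adjusted p 0.0497). Both also passed with median-ratio factors (0.44 and 0.57), with upper-quartile factors (0.40 and 0.53) and in DESeq2 (0.44 and 0.57). Other settings shrank the difference. Over the alternative settings, such as other scalings, probe 498 fell as low as 0.06 and probe 500 as low as 0.20. Their adjusted p-values reached 0.850 and 0.537. Probe 499, which differed least, turned to -0.10 with library totals alone.

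Against hESC, NES was higher by all 3 probes in CEPT EB and by 1 of 3 in Y27 EB. The log2 fold change with CEPT was 1.07 ± 0.33 for probe 500, 1.02 ± 0.25 for probe 498 and 0.61 ± 0.19 for probe 499, with adjusted p-values of 0.00566, 0.000704 and 0.0055. With Y-27632 it was 0.52 ± 0.27, 0.62 ± 0.24 and 0.35 ± 0.19 for the same probes, with adjusted p-values of 0.0900, 0.0239 and 0.0946. These 2 comparisons share the hESC libraries, and the arms themselves were tested against each other in the preceding values. The call of probe 498 in Y27 EB ended without Y27 replicate 1 (0.40, adjusted p 0.164) or hESC replicate 1 (0.55, adjusted p 0.0730), and with median-ratio or upper-quartile factors (0.36 and 0.27). The call of probe 499 in CEPT EB ended with those factors too (0.29 and 0.26), and DESeq2 ended both calls (0.36 for probe 498 and 0.29 for probe 499). Other settings raised the Y27 EB values past the threshold. Probes 499 and 500 passed there with library totals alone (0.75 and 0.94, adjusted p 0.0118 and 0.0229) and with reference-gene scaling (1.89 and 2.05), and NES summed over its probes passed at 0.58 ± 0.23 (adjusted p 0.0242).

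By mean level both arms were below neural induction in NES, although the highest EB libraries reached the ectoderm range by the lead probe. Against ectoderm the log2 fold changes of probes 498, 499 and 500 were -0.82, -1.47 and -0.82 with CEPT and -1.51, -2.01 and -1.64 with Y-27632. All 6 values passed the threshold, although probe 500 with CEPT no longer did with library totals alone (-0.70, adjusted p 0.0794) or with reference-gene scaling (-0.48, adjusted p 0.124). Over the alternative settings, such as other scalings, the Y27 values ran from those given to -0.76, -1.29 and -0.90, all past the threshold.

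The 3 NES probes did not divide the gene's reads alike in all cultures. Probe 499, the one farthest along the transcript, took 22.3 ± 1.69% of NES reads in hESC, 24.8 ± 2.95% in ectoderm, 26.96 ± 2.36% in mesoderm and 26.7 ± 1.75% in endoderm (SD, n = 4 each). In EBs it took 18.2 ± 2.89% with CEPT and 20.4 ± 2.36% with Y-27632 (SD, n = 16 each), with ranges of 14.5 to 23.8% and 15.6 to 25.0%. The EB ranges overlap those of hESC and ectoderm and reach well below them. No test was run on these shares.

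MAP2 separated the control cultures by the largest factors of the 4 genes. The lead probe counted 30.3, 29.3, 29.7 and 27.1 CPM in the hESC libraries and 516, 495, 503 and 516 CPM in the ectoderm libraries. In mesoderm it counted 0, 5, 3 and 6 reads, a mean of 1.15 ± 0.79 CPM, and in endoderm 4, 1, 0 and 2 reads, a mean of 0.69 ± 0.69 CPM (SD, n = 4 each). Ectoderm stood above and mesoderm and endoderm below every hESC library, and mesoderm and endoderm overlapped. The log2 fold change over hESC was 4.07 ± 0.19 (SE) in ectoderm, -4.83 ± 0.31 in mesoderm and -5.42 ± 0.35 in endoderm, with edgeR adjusted p-values of 1.88e-13, 3.47e-11 and 4.03e-11. Without endoderm replicate 1, which held 4 of the 7 endoderm reads, the last value was -6.17.

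The other MAP2 probes gave the same picture at fewer reads. Probe 459 counted 13.4 ± 3.50 CPM in hESC and 213.5 ± 13.5 CPM in ectoderm (SD, n = 4 each), against 1 read over the 4 mesoderm libraries and 2 reads over the 4 endoderm libraries. Its ratio of hESC to mesoderm was 158, with a 95% counting interval of 27.8 to 6302, and that of hESC to endoderm was 65.4, with an interval of 17.7 to 546. These intervals cover counting error only. Probe 458 held 7 reads in hESC, 290 in ectoderm, 1 in mesoderm and 2 in endoderm, and its ratio of hESC to mesoderm, 9.71, had an interval of 1.25 to 438. Its higher level in ectoderm than in hESC (log2 fold change 4.91 ± 0.50, adjusted p 2.70e-08) became 5.69 without hESC replicate 4. Whether hESC exceeded mesoderm or endoderm in probe 458 turned on single libraries, since its call was lost without any of hESC replicates 3 and 4 and mesoderm replicates 2, 3 and 4 (adjusted p 0.0541 to 0.142) in mesoderm and was gained without hESC replicate 1 or endoderm replicate 4 (0.0391 and 0.0222) in endoderm.

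In EBs, MAP2 was above hESC and below neural induction, and no probe passed between the arms. The lead probe ran from 89.0 CPM at the lowest through 141 at the median to 184 CPM with CEPT (mean 140 ± 26.5 SD, n = 16) and from 74.0 through 158 to 223.5 CPM with Y-27632 (153 ± 30.6, n = 16). Every EB library lay above all hESC libraries and below all ectoderm libraries, by this probe and by probe 459, and the arms overlapped. The share of all panel probes with such gaps was not counted. Over hESC the log2 fold change was 2.30 ± 0.20 with CEPT and 2.40 ± 0.18 with Y-27632, both past the threshold. Over ectoderm it was -1.93 ± 0.14 and -2.12 ± 0.13, also past it, and the last ran from -2.12 to -1.39 over the alternative settings. Between the arms it was -0.15 ± 0.11 for probe 457, -0.18 ± 0.33 for probe 458 and -0.09 ± 0.14 for probe 459 (adjusted p 0.373, 0.754 and 0.725). With library totals alone probe 457 passed, at -0.51 (adjusted p 0.00321), and probe 459 turned to 0.01 with median-ratio factors. Probe 458 over hESC gave 3.29 ± 0.84 with CEPT and 3.42 ± 0.73 with Y-27632, and 3.98 and 4.22 without hESC replicate 4.

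**Figure D3:**
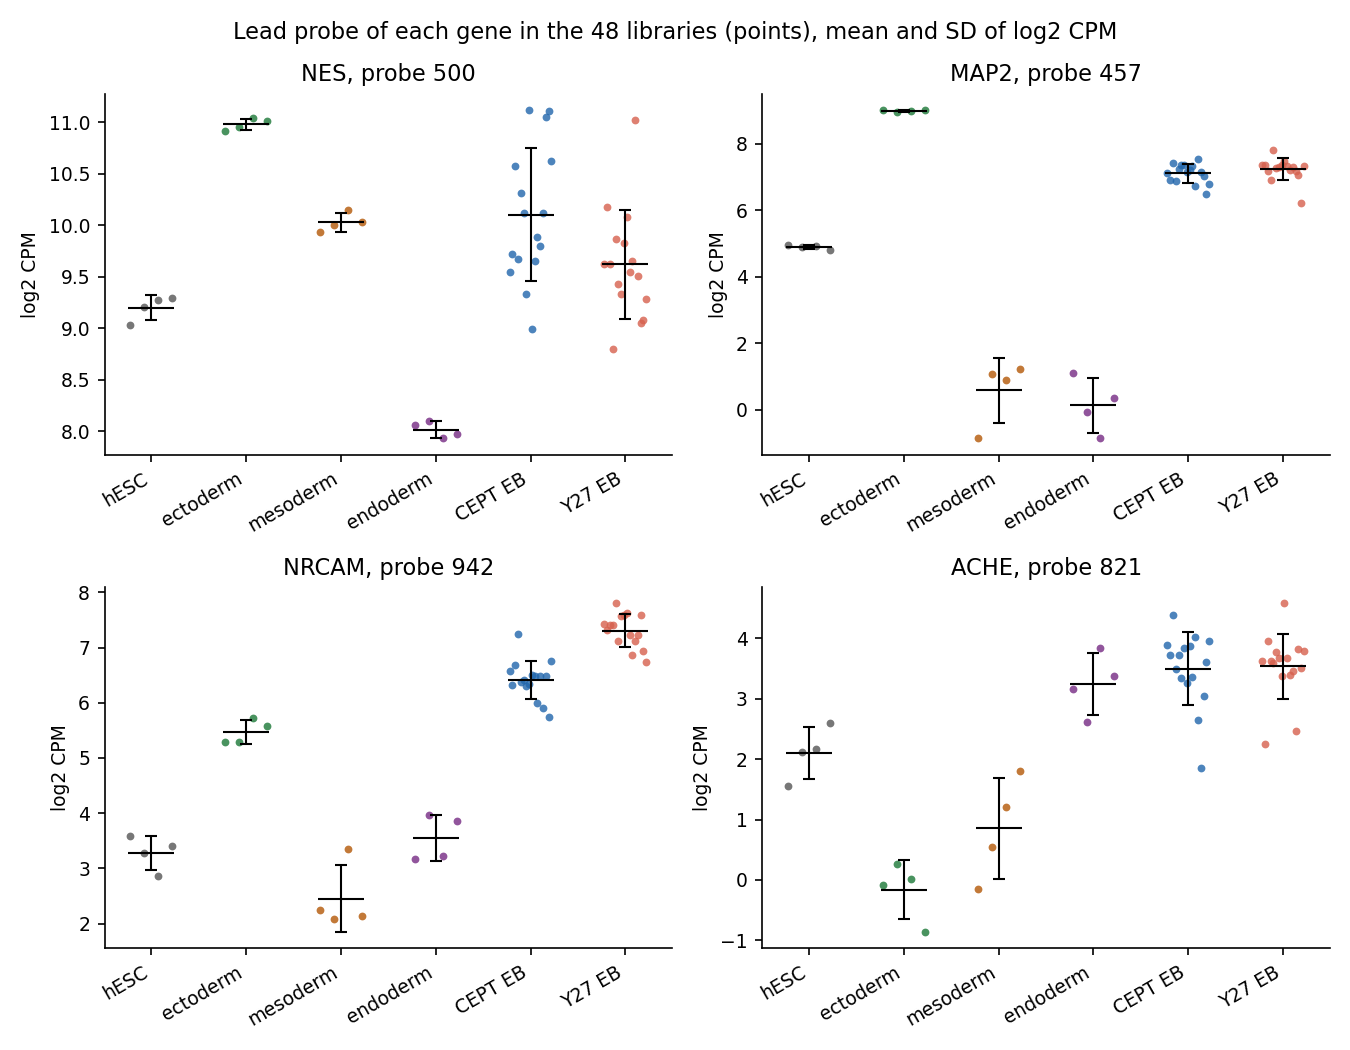
Log2 CPM (vertical axes) of the lead probe of NES, MAP2, NRCAM and ACHE in each of the 48 libraries (points), by group, with the mean and SD of log2 CPM as black bars. NES scatters widely in both EB arms, MAP2 of every EB library lies between hESC and ectoderm, and most Y27 EB points of NRCAM lie above the CEPT EB points.

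By its lead probe, NRCAM was higher in EBs than in any control culture, neural induction included. The lead probe counted 11.4, 9.13, 6.73 and 10.0 CPM in hESC, 38.3, 38.7, 52.3 and 47.2 CPM in ectoderm, 4.19, 3.67, 9.67 and 3.81 CPM in mesoderm and 8.48, 15.1, 8.86 and 13.8 CPM in endoderm. With CEPT it ran from 53.3 through a median of 87.1 to 150 CPM (mean 87.2 ± 22.1 SD, n = 16), and with Y-27632 from 106 through 163 to 222 CPM (161 ± 32.6, n = 16). By this probe every EB library exceeded every control library, ectoderm exceeded the other 3 control groups, and hESC, mesoderm and endoderm overlapped. By probe 943 the ranges of CEPT EB and ectoderm overlapped, with 3 of the 16 CEPT libraries below the ectoderm median. The share of all panel probes separated in this way from the control cultures was not counted.

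Between the arms the ranges of NRCAM overlapped, but all 16 CEPT libraries lay below the Y27 median and 9 Y27 libraries lay above the highest CEPT library. A CEPT arm wholly on 1 side of the Y27 median was found for 73 of the 867 probes (8.42%), and ranges that did not overlap for 2 (0.231%). The log2 fold change of the lead probe was -0.90 ± 0.12 (SE), with an adjusted p of 1.56e-06. Probe 943, on the same gene at lower counts, held 17.2 ± 7.36 CPM with CEPT (6.29 to 30.3) and 31.0 ± 7.85 CPM with Y-27632 (17.5 to 45.6, SD, n = 16 each). The fitted difference was -0.86 ± 0.19 (log2, SE), with an adjusted p of 0.00128. Leaving out each library in turn kept the lead probe between -0.97 and -0.84 and probe 943 between -0.93 and -0.78. The other scalings, DESeq2 and the remaining alternatives gave -1.22 to -0.81 and -1.14 to -0.77, with every adjusted p under 0.05. The probes share RNA molecules and libraries, so they repeat the measurement without adding replicates. Lead probe reads made up 83.7 ± 5.23% of NRCAM reads with CEPT and 83.8 ± 3.06% with Y-27632 (SD, n = 16 each), with overlapping ranges.

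Relative to hESC, NRCAM rose by 3.26 ± 0.26 (log2) with CEPT and by 4.11 ± 0.22 with Y-27632 by the lead probe, and by 3.87 ± 0.52 and 4.71 ± 0.33 by probe 943. Against ectoderm the lead probe was higher by 0.92 ± 0.21 and 1.48 ± 0.18. Probe 943 was higher by 1.36 ± 0.26 with Y-27632, and its 0.83 ± 0.40 with CEPT did not pass (adjusted p = 0.0630). That value passed without CEPT replicate 5, 13 or 15 (0.89, 0.88 and 0.89) and with reference-gene scaling (1.20). Over the alternative settings the Y27 values against ectoderm ran from 1.48 to 2.21 for the lead probe and from 1.36 to 2.07 for probe 943. Ectoderm itself was higher than hESC by 2.18 ± 0.25 and 2.87 ± 0.42 for the 2 probes. Mesoderm was lower than hESC by the lead probe, -1.14 ± 0.30 (adjusted p 0.00224), a call that ended with reference-gene scaling (-0.21) and with reads summed over both probes (-0.54, adjusted p 0.0585). Probe 943 lay on the other side in mesoderm, at 0.76 ± 0.50 (adjusted p 0.169), and passed without mesoderm replicate 1 (1.05, adjusted p 0.0425) and with reference-gene scaling (1.67, adjusted p 0.00405). In endoderm neither probe passed against hESC (0.15 ± 0.28 and 0.82 ± 0.51), and the lead probe's value turned to -0.20 with upper-quartile factors and to 0.64 with reference genes (adjusted p 0.0430). With reference genes probe 943 passed in endoderm too (1.28, adjusted p 0.0281).

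Ratios within a library do not depend on how libraries are scaled, except through the prior count of 2 added before the log. That count matters only at few reads. The log2 ratio of the NRCAM to the MAP2 lead probe was -0.69 ± 0.39 (SD, n = 16) with CEPT, from -1.24 through a median of -0.73 to 0.37, and 0.08 ± 0.33 with Y-27632, from -0.57 through 0.05 to 0.72. NRCAM over NES was -3.69 ± 0.80 with CEPT and -2.31 ± 0.59 with Y-27632, and MAP2 over NES was -3.00 ± 0.79 and -2.39 ± 0.46. The arms overlap in all 3 ratios and their means lie farthest apart in NRCAM over NES. As the level of a ratio depends on the yield of the probes, only its difference between cultures can be read. NRCAM over MAP2 was -3.52 ± 0.22 in ectoderm and -1.61 ± 0.32 in hESC (SD, n = 4 each), so both EB arms held more NRCAM for their MAP2 than either. In mesoderm and endoderm, where MAP2 was near 0, the ratio was higher than in the EB arms, at 1.87 ± 1.08 and 3.42 ± 0.95 (SD, n = 4 each). With at most 6 and 4 MAP2 reads in a library, these values depend on the prior count.

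**Figure D4:**
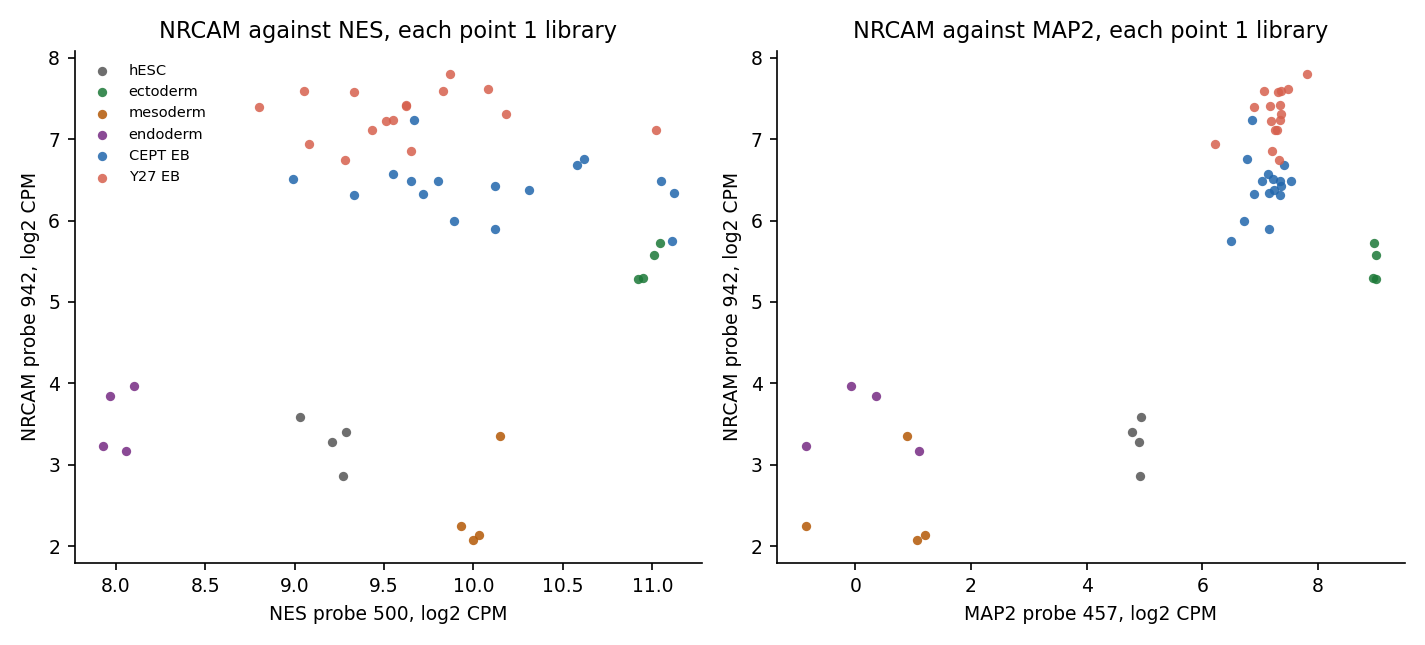
Log2 CPM of the NRCAM lead probe (vertical axes) against the lead probes of NES and of MAP2 (horizontal axes), each point 1 of the 48 libraries, coloured by group. The 2 EB arms overlap in MAP2 and lie mostly apart in NRCAM, and the 4 ectoderm libraries lie at higher MAP2 and lower NRCAM than any EB library.

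ACHE was counted at few reads in every culture, and it was the only one of the 4 genes that fell in neural induction. The lead probe counted 5, 10, 7 and 11 reads in the hESC libraries (3.90 ± 1.28 CPM), 1, 2, 1 and 0 in ectoderm (0.38 ± 0.28 CPM), 1, 3, 4 and 10 in mesoderm (1.49 ± 1.12 CPM) and 21, 14, 28 and 27 in endoderm (9.42 ± 3.42 CPM, SD, n = 4 each). Endoderm stood above and ectoderm below every hESC library, and mesoderm overlapped both hESC and ectoderm. The log2 fold change over hESC was -3.32 ± 0.67 (SE) in ectoderm (adjusted p 0.000161), -1.60 ± 0.51 in mesoderm (0.00818) and 1.08 ± 0.41 in endoderm (0.0219). With reads this few, 1 library or the scaling could end a call. The endoderm call was lost without hESC replicate 1 (0.87), hESC replicate 2 (1.07) or endoderm replicate 3 (0.86), and with upper-quartile factors (0.74) or library totals alone (0.79). The mesoderm call was lost without mesoderm replicate 2 (-1.24) and with reference genes (-0.66).

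Ectoderm was also lower in ACHE than endoderm (-4.39 ± 0.58, adjusted p 1.12e-06) and mesoderm was lower than endoderm (-2.67 ± 0.44, adjusted p 2.08e-05, and -3.27 without mesoderm replicate 4). Ectoderm against mesoderm, at -1.72 ± 0.76 (adjusted p 0.0458), lost its call without any of ectoderm replicates 1, 3 and 4 and mesoderm replicates 3 and 4, with values from -1.81 to -1.11. It was lost as well with median-ratio factors (-1.65, adjusted p 0.0585), with reference genes (-1.42, adjusted p 0.111), with no filter (-1.63, adjusted p 0.0605) and in DESeq2 (-1.75, adjusted p 0.0643).

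EBs held more ACHE than hESC or ectoderm, and no difference between the arms passed. The lead probe ran from 3.07 through 12.1 to 20.4 CPM with CEPT (mean 11.6 ± 4.19 SD, n = 16) and from 4.20 through 11.8 to 23.3 CPM with Y-27632 (11.8 ± 4.20, n = 16). Both ranges enclosed the endoderm range, overlapped that of hESC and lay wholly above ectoderm and mesoderm. Over hESC the log2 fold change was 1.61 ± 0.44 with CEPT and 1.60 ± 0.39 with Y-27632, and over ectoderm it was 4.78 ± 0.66 and 4.53 ± 0.59, the last 5.35 without ectoderm replicate 2. Between the arms it was -0.03 ± 0.23 (adjusted p 0.934), and its sign changed with the scaling and with the library left out. Probe 4 of ACHE held 4.54 ± 2.44 CPM with CEPT and 5.58 ± 2.21 CPM with Y-27632 (SD, n = 16 each), with a difference of -0.33 ± 0.33 (adjusted p 0.547). In control cultures it counted 5 reads in hESC, 5 in ectoderm, 9 in mesoderm and 23 in endoderm over 4 libraries each. Over hESC it was higher by 2.92 ± 0.84 with CEPT and 3.23 ± 0.70 with Y-27632, or 3.70 and 4.10 without hESC replicate 1. Over ectoderm it was higher by 3.19 ± 0.86 and 3.21 ± 0.69, the last 3.94 without ectoderm replicate 1.

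Set in order, the lead probes ranked the 6 cultures differently. By mean CPM, NES ran ectoderm, CEPT EB, mesoderm, Y27 EB, hESC, endoderm, and every neighbouring pair overlapped apart from hESC and endoderm. MAP2 ran ectoderm, Y27 EB, CEPT EB, hESC, mesoderm, endoderm, with overlap only between the EB arms and between mesoderm and endoderm. For NRCAM the order was Y27 EB, CEPT EB, ectoderm, endoderm, hESC, mesoderm, with gaps between CEPT EB and ectoderm and between ectoderm and endoderm. For ACHE it was Y27 EB, CEPT EB, endoderm, hESC, mesoderm, ectoderm, with a gap only between endoderm and hESC.

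Other genes on the panel were compared for likeness over the 6 group means. Each gene was represented by its lead probe in log2 CPM, centred on its own mean, and 390 genes were ranked by the root mean square difference from each of the 4. Nearest to NES were SDC2 (0.24), a cell surface proteoglycan, CNTNAP1 (0.30), a partner of contactin at axons, and RPS19 (0.36), a ribosomal protein, with a median of 1.60 over the genes compared. SDC2 held 287 CPM in hESC, 1324 in ectoderm, 668 in mesoderm, 130 in endoderm, 450 in the CEPT arm and 375 in the Y27 arm. Nearest to MAP2 were SULF1 (0.86), a sulfatase of cell surface heparan sulfate, SOX2 (1.40), a transcription factor of stem and neural progenitor cells, and NGFR (1.41), the low affinity neurotrophin receptor, with a median of 3.55. None was as near to MAP2 as its own probe 459 (0.22). SULF1 held 31.5 CPM in hESC, 268 in ectoderm, 1.85 in mesoderm, 0.55 in endoderm, 36.2 in the CEPT arm and 55.0 in the Y27 arm, so in EBs it stayed near hESC where MAP2 was higher.

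Nearest to NRCAM were CDH5 (0.37), the cadherin of vascular endothelium, ABCA5 (0.47), a lipid transporter, and POU3F3 (0.49), a transcription factor of the developing brain. The median was 2.21, and NRCAM's own probe 943 stood at 0.50. In hESC, mesoderm and endoderm, CDH5 held 0.25, 0 and 0.10 CPM and POU3F3 0, 0.08 and 0.19 CPM. The likeness of these genes therefore rests partly on values near 0. ABCA5 held 1.86 CPM in hESC, 22.7 in ectoderm, 1.99 in mesoderm, 4.89 in endoderm, 53.5 in the CEPT arm and 56.2 in the Y27 arm, so it shared the high EB level but not the gap between the arms. Nearest to ACHE were NQO1 (0.59), a quinone reductase, and SRSF2 (0.62) and SFPQ (0.64), both splicing factors, with a median of 1.98. Likeness over 6 group means from 1 set of libraries is a description and carries no test.

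Wider lists of neural genes held few calls between the EB arms. Of 20 tested probes for 9 other neural progenitor genes, 0 were higher and 2 lower with CEPT (median log2 fold change -0.12). PAX6, a transcription factor of neuroectoderm, held 18.6 CPM with CEPT and 10.1 CPM with Y-27632 (0.82 ± 0.44, adjusted p 0.189). VIM, an intermediate filament protein that partners nestin, held 6869 and 7620 CPM (-0.17 ± 0.12, adjusted p 0.387), and CDH2, N-cadherin, 731 and 798 CPM (-0.14 ± 0.10, adjusted p 0.339). Of 31 probes for 15 neurite and neuron genes, 1 was higher and 4 lower (median -0.08), shares near or below the 10.6% and 13% of all probes. The higher probe was SST, the neuropeptide somatostatin, at 6362 and 3913 CPM (0.69 ± 0.18, adjusted p 0.00383). TUBB3, the neuronal tubulin, held 11340 and 12480 CPM (-0.15 ± 0.16, adjusted p 0.549), and GAD1, an enzyme of GABA synthesis, 16.2 and 7.96 CPM (0.99 ± 0.51, adjusted p 0.162). Of 3 probes for 2 cholinergic genes beside ACHE, 0 were higher and 1 was lower. ISL1, a transcription factor of motor and sensory neurons, was lower with CEPT (938 and 1170 CPM, -0.34 ± 0.12, adjusted p 0.0331), and SLC18A3, the vesicular acetylcholine transporter, held 8.58 and 12.02 CPM (-0.48 ± 0.29, adjusted p 0.270).

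The same lists were counted in the comparisons with neural induction. All 24 progenitor probes tested were higher in ectoderm than in hESC, while 10 of 22 neurite and neuron probes were higher and 8 lower, beside 43.2% higher and 38.5% lower of all probes, so the neurite and neuron counts lie near the panel's. The progenitor list was not particular to neural induction. Its summed level was highest in mesoderm, at a median of 34830 CPM against 16680 in ectoderm, with VIM at 30280 and 4078 CPM. By probes, 18 of 24 were higher and 6 lower in ectoderm than in mesoderm. Against ectoderm, each EB arm had 18 progenitor probes lower and 7 higher of 28. Of 33 neurite and neuron probes, 27 were higher and 0 lower in each arm. Of all probes, 38.4% were higher and 34.3% lower with CEPT, and 32.6% and 40.0% with Y-27632. NES and MAP2 were lower in EBs than in ectoderm, the direction of most progenitor probes. NRCAM and ACHE were higher, the direction of most neurite and neuron probes, although MAP2 is itself a gene of neurites. PAX6 held 893.5 CPM in ectoderm and TUBB3 124 CPM, against the EB levels given above. Ectoderm was the lowest culture in TUBB3, which held 1644 CPM in hESC, 875 in mesoderm and 2909 in endoderm. So among the control cultures TUBB3 did not follow neural induction.

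Markers of another cell type were also lower with CEPT, as NRCAM was. Of 11 tested probes for 4 neural crest genes (SOX10, FOXD3, SNAI2 and PAX3, of 5 listed), 9 were lower with CEPT and 0 higher (median -0.39). The summed level of all probes of these genes ran from 2953 through a median of 3985 to 4624 CPM with CEPT. With Y-27632 it ran from 3725 through 4896 to 6092 CPM. None of the 4 lead probes was at 0 in all libraries of an EB arm. SOX10, a factor of neural crest and glia, held 1090 and 1404 CPM (-0.38 ± 0.12, adjusted p 0.0184), and FOXD3, an early crest factor, 456.5 and 589 CPM (-0.39 ± 0.08, adjusted p 0.000575). FOXD3 was not confined to EBs, with 220 CPM in hESC against 0.08 in ectoderm. SNAI2, which acts in crest migration, held 809 and 919 CPM (-0.20 ± 0.07, adjusted p 0.0445). The calls of these crest genes were not repeated with other scalings. The part of crest cells in the NRCAM difference was not tested. Of the pluripotency probes 0 of 9 passed in either direction (median 0.06), and of the mesoderm and endoderm probes 0 of 2 and 0 of 2.

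Within an arm, the 4 genes showed little sign of varying together from library to library. Lead probe levels were correlated in pairs, 6 pairs in each arm and 12 in all, with permutation p-values adjusted by Benjamini-Hochberg over the 12. No Pearson correlation passed, the lowest adjusted p being 0.45. The closest was NES with MAP2 in Y27 EB (r = 0.504, permutation p = 0.0625, n = 16), where r was 0.635 without the 2 libraries farthest from the median of NES. Spearman's rho of that pair was 0.694 (permutation p = 0.00352, adjusted p = 0.0422), and without the shallow Y27 replicate 15 it was 0.639 (adjusted p = 0.145), so the adjusted call was lost without that library while rho stayed of like size. In CEPT EB the same pair gave r = -0.34 (permutation p = 0.198, adjusted p = 0.719) and rho = -0.229. MAP2 and NRCAM gave r = 0.451 in Y27 EB (permutation p = 0.075, adjusted p = 0.45), rho = 0.444, and 0.034 without the 2 libraries farthest in MAP2. Over all 16 libraries of an arm, MAP2 correlated with log2 total reads at r = 0.77 in Y27 EB and 0.48 in CEPT EB. The Y27 EB value includes the shallow replicate 15, lowest in both reads (379810) and MAP2 (73.96 CPM). It was not computed without that library. The part of depth in these pairs was not tested beyond leaving out that library.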

How the data were processed

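RASL-Seq reads of the 48 libraries were counted by the authors with a custom aligner, per the labels, and the deposited values are raw counts per probe. The submitters' processing notes name hg38 and DESeq2 without saying how they were used. The merged count table held the same values as the sample tables in 48 columns, and 16 further columns matched no sample and were not used. All 1113 rows name a gene.

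Probes were kept by filterByExpr (by group), TMM factors were applied and groups were tested two-sided with edgeR 4.0.16 (robust quasi-likelihood, R 4.3.3), with Benjamini-Hochberg adjustment over all probes tested and a threshold of 0.05. The EB arms were fitted on their 32 libraries, the 4 control groups in 1 fit, and EBs against hESC or ectoderm on those 20 libraries. CPM used TMM factors over all libraries, and log2 CPM a prior count of 2. Correlations used 100000 resamples. The edgeR fit was tested on simulated counts with known changes. Totals of 379810 to 5577868 reads carry no molecular identifiers in the labels, so counting intervals cover counting error only. No 2 libraries of a group agreed within counting noise.

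All probes of the 4 genes were named. Of other genes, the 3 nearest in pattern to each lead probe (highest group mean at least 10 CPM) and up to 4 per list were named: the 2 highest in level and the 2 with the largest change between the EB arms. A gene that this rule names is not reported here. The genes and lists were chosen with earlier results of these data known. NM_ names are RefSeq transcripts, and promoters are RefSeq on GRCh38.p14. Alternatives were DESeq2 1.42.0, other scalings, no filter, a replicate block, summed probes, a prior count of 0.5 and leaving libraries out. Same-numbered libraries of the induced lineages mostly deviated together, those of the EB arms did not, and the labels name no shared batch. Figures used matplotlib 3.10.9.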

Additional observations from a re-analysis of the deposited data

Results flagged for a closer look

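In groups of 4 libraries, a library was marked when its gap to the nearest of the others was too large a part of the group's range by Dixon's 95% criterion. This was done for 40 combinations of a probe and a control group, and 7 were marked, where chance marks about 1 in 20. NES probe 499 in hESC replicate 3 was low at 8.09 log2 CPM, against 8.19 to 8.21 in the other libraries. NES probe 499 in ectoderm replicate 3 was high at 10.50 log2 CPM, against 9.96 to 10.02. NRCAM probe 942 in mesoderm replicate 3 was high at 3.35 log2 CPM (22 reads), against 2.08 to 2.25 (12 to 13 reads).

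The other 4 concern MAP2 at almost no reads. Probe 457 was at -0.86 log2 CPM in mesoderm replicate 1 (0 reads), against 0.90 to 1.21 (3 to 6 reads). Probes 458 and 459 were each at -0.15 log2 CPM in that library (1 read), where the others had 0 reads, and probe 458 was at 0.36 log2 CPM in endoderm replicate 4 (2 reads), where the others had 0 reads. Where all others hold 0 reads the gap equals the range, so any read is marked and the mark says nothing more.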

How the results depend on the processing

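Both NRCAM probes kept their lower level with CEPT past the threshold under every alternative run, while NES crossed it under several. The number of the 10 probes called between the EB arms was 4 with median-ratio factors, 4 with upper-quartile factors and 4 in DESeq2, and 2 to 4 when each library was left out. Over the whole panel 339 probes were called with library totals alone and 168 to 219 with each library left out. Values not past the threshold changed sign as follows. Between the EB arms, MAP2 probe 459 gave 0.0073 with median-ratio factors and 1e-04 in DESeq2, and NES probe 499 gave -0.0959 with library totals alone. ACHE probe 821 gave 0.0527 with median-ratio factors, 0.0107 with upper-quartile factors, 0.0574 in DESeq2 and -0.1031 to 0.0841 without single libraries, and MAP2 probe 458 ran from -0.342 to 0.0338, the latter without Y27 replicate 7. For endoderm against hESC, NRCAM probe 942 gave -0.1964 with upper-quartile factors, -0.136 with library totals and -0.0289 (without endoderm replicate 2) to 0.2588 without single libraries. For mesoderm against endoderm, NRCAM probe 943 gave 0.2863 with upper-quartile factors, 0.5572 with library totals, 0.3903 with reference genes and -0.2086 to 0.2404 without single libraries, positive without mesoderm replicate 1 or 3. MAP2 probe 458 ran there from -2.3264 to 1.3657, the latter without endoderm replicate 4. With library totals alone, r of NES with MAP2, NRCAM and ACHE in CEPT EB turned to 0.172, 0.253 and 0.189 and of NES with ACHE in Y27 EB to 0.158, while NES with MAP2 (0.727) and MAP2 with NRCAM (0.734) passed in Y27 EB. NES with NRCAM in Y27 EB turned to -0.022 without the shallow library. The cause was not tested.

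With scaling by 3 reference genes the median of all probes shifted by 1.29 (log2) for ectoderm, 0.90 for mesoderm, 0.48 for endoderm, 1.47 for CEPT EB and 1.54 for Y27 EB against hESC, and library totals moved it by -0.32 between the EB arms, by 0.70 for Y27 EB against ectoderm and by 0.59 for mesoderm against endoderm. For Y27 EB against ectoderm it moved by 0.35 without the shallow library. Same-numbered libraries of the EB arms did not deviate together (2 of 16 pairs over 0.1). Among the induced lineages most did. The correlation of deviations was over 0.1 in 3 of 4 pairs for ectoderm with mesoderm. It was over 0.1 in 3 of 4 for ectoderm with endoderm and 2 of 4 for mesoderm with endoderm. Replicate 3 gave the highest values, 0.64, 0.48 and 0.49, and what these libraries shared was not tested. A replicate block for the pairing of numbers gave 167 called probes between the EB arms, with NRCAM at -0.91 and -0.95, and among EBs against hESC it ended the calls of NES probe 498 (0.52, adjusted p 0.0641) and ACHE probe 821 (1.36, adjusted p 0.0612) in Y27 EB on 8 libraries. It brought NRCAM probe 943 in CEPT EB against ectoderm past the threshold (1.20), as did the same 8 libraries without it (1.19), a fit chosen after seeing the data. Depth limits MAP2 in mesoderm and endoderm and ACHE in all control cultures.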
